A study of Mus musculus with 4 samples.

Results

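The antioxidant genes described here are 44 genes of the NRF2 pathway, of glutathione and thioredoxin metabolism and of reactive oxygen removal, chosen by gene symbol from a fixed list. All 44 were found among the 45777 genes in the files, and all 44 passed the filter on low counts, with at least 291 counts in every library. They were followed in RNA sequencing of 4 mouse gastric organoid libraries, 2 for each of 2 genotypes. The control libraries came from organoid lines with knockout of Cdh1 and Trp53, and the Smad4 knockout libraries from lines with knockout of Cdh1, Trp53 and Smad4, so loss of E-cadherin and p53 is shared by both groups. Each library is a separately named line. The labels do not say how the alleles were made, whether a line is 1 clone, or whether the lines come from separate animals, so p-values measure only the spread between these 4 libraries, which may be technical. All lines were kept in medium conditioned by the L-WRN cell line with serum, and then spent 2 days before harvest in medium with B27 and N2 and with neither serum nor conditioned medium. B27 in its standard form holds antioxidants, and the labels do not say which form was used. Total RNA was read, with ribosomal RNA removed and strand kept, to between 85649781 and 99845702 counts per library.

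NRF2, the protein of Nfe2l2, is a transcription factor that is made continuously and destroyed continuously. KEAP1 hands it to a CUL3 ubiquitin ligase, and oxidants or electrophiles that react with KEAP1 let NRF2 build up, pair with a small MAF protein and bind antioxidant response elements. Its targets make glutathione, reduce thioredoxin, supply NADPH, and conjugate and export reactive compounds. Because much of this control acts on the protein, the level of Nfe2l2 RNA is not a measure of NRF2 activity. In the gut and stomach epithelium GPX2 is known as the gastrointestinal glutathione peroxidase, and glutathione S-transferases handle compounds that arrive from the lumen.

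The element is usually written TGACNNNGC. This motif was searched on both strands of the RefSeq promoter windows of GRCm38.p6, which run from 250 bases before a gene's start to 50 bases after it. Windows were given for 38 of the 44 genes, 49 windows in all, and 14 of them (28.6%), from 13 genes, held a match. Of all 32851 windows 12.4% held one. The windows below are shown because they belong to the regulator itself and to enzymes of several arms of the pathway. Each is written 5′ to 3′ on the strand that reads the motif, with the match in capitals and 10 bases on either side.
Nfe2l2: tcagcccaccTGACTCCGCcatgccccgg
Gclm: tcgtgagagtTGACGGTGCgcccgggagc
Txnrd1: cgtgtcagaaTGACAAAGCaaaaatccag
Srxn1: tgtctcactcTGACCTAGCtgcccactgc
Ugdh: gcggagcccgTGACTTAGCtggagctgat
Ugdh: ccgaactgtaTGACCACGCcccttgagga
G6pdx: gcgtgtgcttTGACTGAGCtgacccgcct
Pgd: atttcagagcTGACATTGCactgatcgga
Mgst1: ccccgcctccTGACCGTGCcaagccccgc
Sod1: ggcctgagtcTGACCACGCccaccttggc

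Relative to the listed start of their own window, the matches began between 240 bases before it in Nfe2l2 and 28 bases after it in Srxn1. The windows of Txnrd1 and Pgd belong to starts inside the gene, as Txnrd1 spans 82833951 to 82897724 and Pgd 149149991 to 149166705. The Nfe2l2 match lies at chr2:75704895-75704903, that of Gclm at chr3:122245423-122245431 and that of Txnrd1 at chr10:82859114-82859122, all on the minus strand of the genome. Ugdh held 2 matches, which began 132 and 94 bases before its start. The form TGACTCAGC also holds the AP-1 motif TGACTCA, and was found in 0.454% of all windows. Among the 44 genes Prdx1 and Me1 held it, and their windows are shown whole in the direction of the gene, with the match in capitals. The Prdx1 match (chr4:116685466-116685474) reads TGACTCAGC on the opposite strand and begins 133 bases before the start, and the Me1 match (chr9:86695912-86695920) begins 6 bases before the start.
Prdx1, chr4:116685349-116685648, plus strand: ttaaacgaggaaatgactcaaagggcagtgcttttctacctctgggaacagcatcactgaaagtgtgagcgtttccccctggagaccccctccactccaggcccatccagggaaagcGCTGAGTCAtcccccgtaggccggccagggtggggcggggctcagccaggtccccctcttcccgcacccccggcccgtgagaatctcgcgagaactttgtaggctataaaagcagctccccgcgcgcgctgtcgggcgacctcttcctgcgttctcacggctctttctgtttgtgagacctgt
Me1, chr9:86695865-86696164, minus strand: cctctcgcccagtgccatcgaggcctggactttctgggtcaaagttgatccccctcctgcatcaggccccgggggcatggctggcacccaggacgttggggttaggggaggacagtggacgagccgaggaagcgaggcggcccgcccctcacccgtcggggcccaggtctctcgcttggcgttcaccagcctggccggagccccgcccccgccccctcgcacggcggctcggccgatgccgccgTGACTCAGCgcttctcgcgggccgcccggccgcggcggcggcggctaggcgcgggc

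A match to these letters is not evidence of binding, and a window without them says only that the letters are not in it. Nqo1, Gpx2, Gsta1 and Ephx1 had windows without a match. Gclc, Gsr, Prdx6, Gsta4, Abcc1 and Hmox1 had no window. The results below come back to the printed genes by name.

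Together the 44 genes took 0.906% and 0.909% of the counts in Control 1 and Control 2, and 0.942% and 0.995% in Smad4 Knockout 1 and Smad4 Knockout 2. Levels between genes were compared as TPM, which is scaled per transcript length. Mean TPM over the 4 libraries ran from 6.495 for Gstt1 to 2746 for Ftl1, the light chain of the iron store ferritin, which alone made up 25.3% of the TPM of the 44 genes. Prdx1, the most abundant peroxiredoxin of the list, followed at 909 TPM, then Gsto1 (768), Gsta4 (639.6), Txn1 (554), Sod1 (543) and Gpx4 (496). A total of 20 genes had a mean of at least 100 TPM, and 7 were under 30 TPM. Those 7 included Nqo1 (28.5), Keap1 (27.9), Srxn1 (24.5), Ephx1 (23.9) and Hmox1 (16.6). Of 43 neighbouring pairs in this order 35 had TPM ranges that overlapped over the libraries, so only the broad order is separated. Nfe2l2 was at 103 TPM and Keap1 at 27.9 TPM, and in each library Nfe2l2 was the higher.

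**Figure D1:**
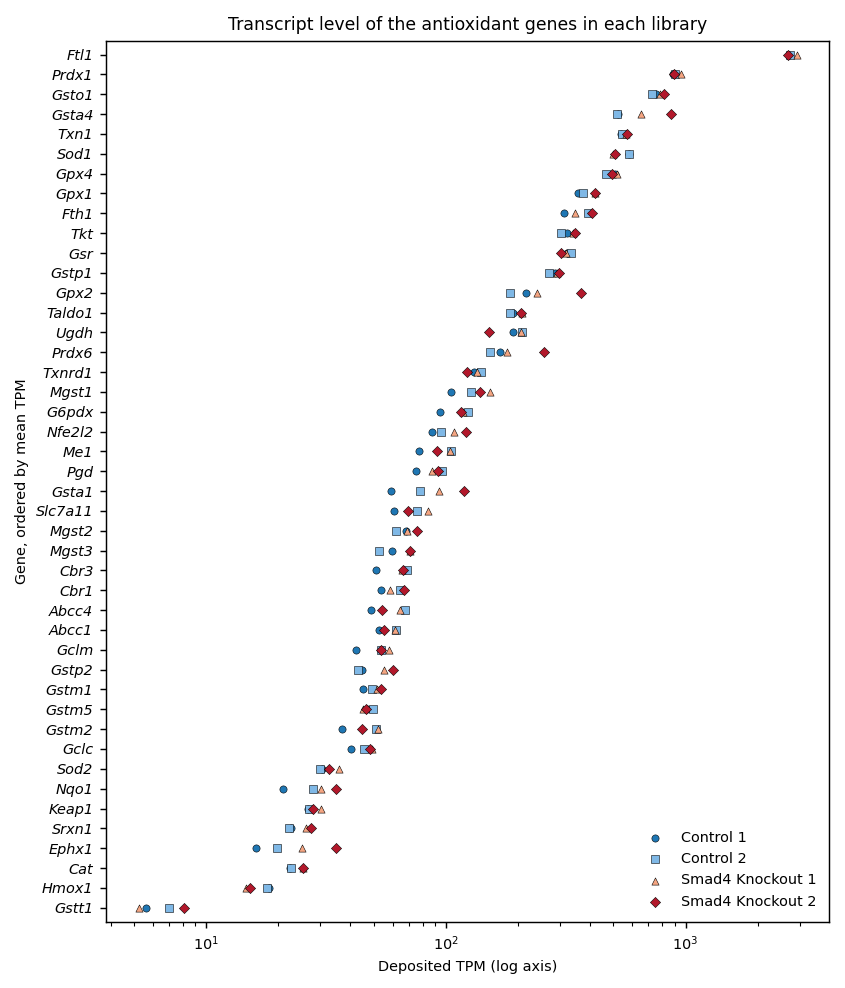
Deposited TPM (log axis) of the 44 antioxidant genes in each library, 1 symbol per library, ordered by mean TPM. Ftl1 stands at the top with a mean of 2746 TPM and Gstt1 at the bottom with 6.495 TPM, while the 4 libraries of a gene mostly lie close together.

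For reading the comparison, Smad4 itself was at 94.5 and 103 CPM in the control lines versus 54.4 and 52.9 CPM in the knockout lines, so transcript remained in both. CPM are counts scaled to a common library total with TMM factors. Cdh1 was at 30.7 and 26.02 CPM versus 30.6 and 44.1 CPM, and Trp53 at 4.87 and 6.98 CPM versus 5.43 and 4.69 CPM. Lines that keep Cdh1 and Trp53 were not analysed here. Some epithelial markers were abundant, with Krt8 at 3125.6 TPM on average and Epcam, Krt18, Krt19 and Cldn18 also present in every library. Others of the same list were low, with Gkn2 at most at 2.45 TPM, Muc5ac at 0.347 TPM and Muc6 at 0.0263 TPM. Markers of chief and enteroendocrine cells summed to at most 0.0463 CPM in any library, and those of parietal cells to between 3.54 and 4.02 CPM, with Atp4b at 0. Fibroblast markers summed to 2.65 and 3.58 CPM in the control lines versus 2.00 and 1.104 CPM in the knockout lines, immune markers to between 4.14 and 4.36 CPM and endothelial markers to between 3.095 and 5.03 CPM. Mitochondrial genes took from 0.941% to 1.48% of the counts and ribosomal RNA from 0.242% to 0.562%, both highest in Smad4 Knockout 2.

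The comparison asked which of the 44 genes differed with loss of Smad4 on the shared Cdh1 and Trp53 knockout background. None passed. With edgeR's quasi-likelihood test, adjusted over all 18115 genes tested, 0 genes were called, which is 0% of all genes and 0 of the 44. The edgeR adjusted p of the 44 genes ran from 0.677 to 0.999. Smad4 itself had the smallest edgeR unadjusted p of all genes tested (0.000163), with an edgeR adjusted p of 0.677. The test thus did not call the knocked-out gene either. At an unadjusted p under 0.05, 5 of the 44 (11.4%) were left, against 6.36% of all genes. All 5 were above 0 and 0 were below, against 3.33% and 3.04% of all genes. At the same unadjusted threshold DESeq2 gave 8, of them 1 below 0, where 648 of its 18115 genes were above 0 and 565 below. Likewise limma on log2(TPM + 1) gave 12, of them 1 below 0, where 624 of its 13277 genes were above 0 and 317 below. The 5 in edgeR were Ephx1, Gsta1, Gsta4, Mgst1 and Gstp2. They are 4 of the 12 glutathione S-transferases on the list and 1 of its 5 quinone, carbonyl, epoxide and glucuronide enzymes. DESeq2 called 0 of the 44, and 0.53% of all genes as higher and 0.171% as lower.

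The groups did not overlap for 22 genes, against 36.9% of all genes. In 16 of the 44 (36.4%) both knockouts were above both controls, against 18.2% of all genes tested, and in 6 (13.6%) both were below, against 18.6%. Log2 fold changes were above 0 for 36 genes and below 0 for 8, against 49.5% and 50.5% of all genes, with a median of 0.10 and a range from -0.31 to 0.72, while the median over all genes was -0.0026. Without Control 1 the number above 0 was 28, and without Smad4 Knockout 1 the median was 0.16. Smad4 Knockout 2 was the highest library in 26 of the 44 genes (59.1%), against 29.1% of all genes, and Smad4 Knockout 1 was the highest in 4. The median gene stood at 0.06 above the control mean (log2) in Smad4 Knockout 1 and at 0.17 in Smad4 Knockout 2. Over all genes tested these medians were 0.0017 and 0.0002. With its sign kept, the median difference of Control 2 from Control 1 in the 44 genes was -0.016. Regardless of sign, the median distance between the 2 controls in a gene was 0.15. In bulk libraries fewer cells that express a gene and less RNA per cell cannot be told apart.

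The differences were small where they could be measured well. The 95% interval of the fold change lay within 2-fold in both directions for 41 of the 44 genes, and for the other 3, Ephx1, Gsta1 and Gpx2, only its upper end passed 2-fold. These genes are abundant, and the same held for 97.7% of the 7562 genes that averaged 20 CPM or more. The median standard error over the 44 genes was 0.12, and over all genes 0.20.

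**Figure D2:**
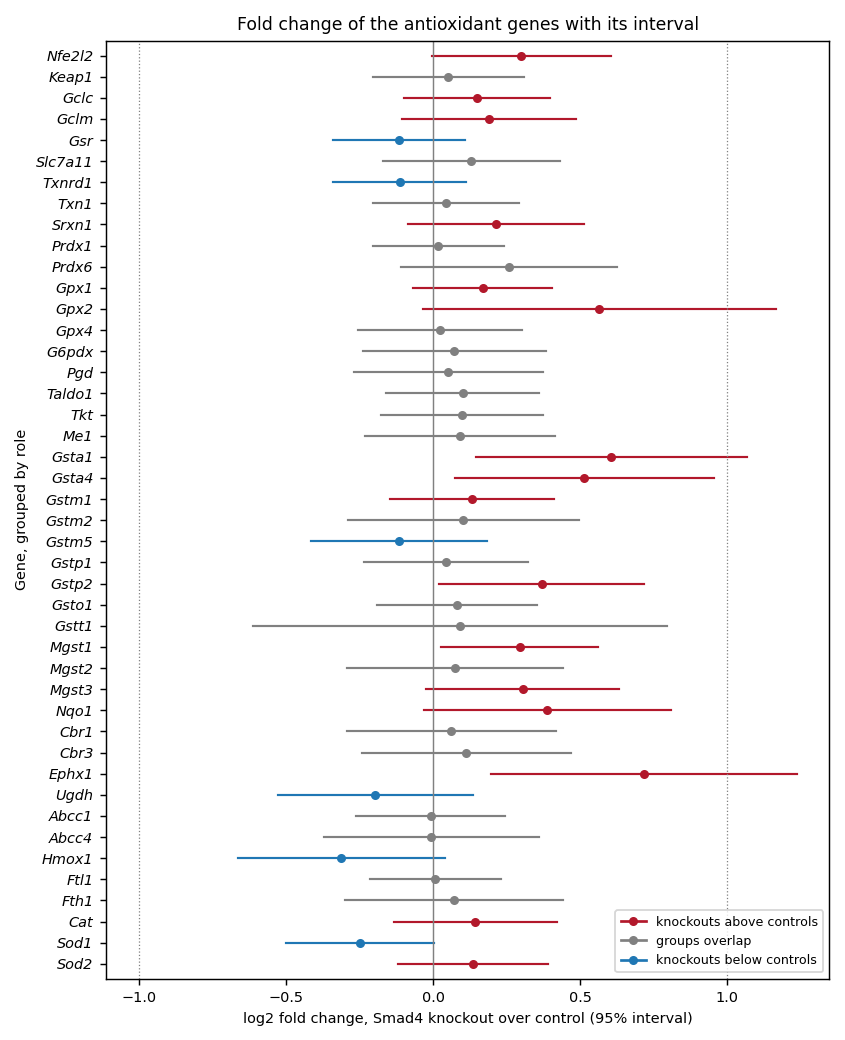
Log2 fold change of each gene, Smad4 knockout over control, from edgeR with its 95% interval (bars) and with 2-fold marked by dotted lines. Red marks the 16 genes with both knockouts above both controls, blue the 6 with both below, and grey the 22 whose groups overlap; none passed the test over all genes.

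Of the regulators, Nfe2l2 (gene ID 18024, chromosome 2, 75675513 to 75704663 in GRCm38) was at 139 and 142 CPM in the control lines versus 156 and 189.9 CPM in the knockout lines. The controls lay close together and both knockouts were above them, Smad4 Knockout 2 most. Its log2 fold change was 0.30 (SE 0.12), and 0.17 without Smad4 Knockout 2. Keap1, which marks NRF2 for destruction, was at 62.97 and 58.9 CPM versus 61.6 and 64.6 CPM. The groups of Keap1 overlapped, and its interval ran from -0.20 to 0.31.

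Genes of glutathione synthesis and recycling lay on both sides of 0. Gclc, the catalytic subunit of the enzyme that sets the rate of glutathione synthesis, was at 88.9 and 93.8 CPM in the control lines versus 98.3 and 105 CPM in the knockout lines. Gclm, its modifier subunit, whose promoter window is printed above, was at 56.2 and 66.6 CPM versus 70.2 and 69.7 CPM. Both had both knockouts above both controls, with log2 fold changes of 0.15 (SE 0.10) and 0.19 (SE 0.12). Without Control 1 the value of Gclm was 0.07, and without Control 2 it was 0.31. Slc7a11, the cystine importer that feeds this synthesis, was at 361 and 420.3 CPM versus 453 and 401 CPM, so its groups overlapped. Gsr, which returns oxidised glutathione to its reduced form, went the other way, at 549.5 and 536 CPM versus 496 and 507 CPM (log2 fold change -0.12, SE 0.09).

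In the thioredoxin arm log2 fold changes ran from -0.11 to 0.26. Txnrd1, the cytosolic thioredoxin reductase, was at 288 and 289 CPM in the control lines versus 269 and 263 CPM in the knockout lines, with both knockouts below (log2 fold change -0.11, SE 0.09). Srxn1, sulfiredoxin, which repairs overoxidised peroxiredoxins, was at 41.1 and 37.5 CPM versus 42.8 and 48.3 CPM, with both above. Prdx6, a peroxiredoxin that uses glutathione, was at 257 and 221 CPM versus 252 and 319.8 CPM, high in Smad4 Knockout 2 only among the 4 libraries. Txn1, thioredoxin itself, was at 363 and 342 CPM versus 348 and 378 CPM. Prdx1, which holds the TGACTCAGC match printed above, lay between 769 and 804 CPM in every library, and its interval ran from -0.21 to 0.24.

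The glutathione peroxidases differed from each other in how far Smad4 Knockout 2 stood apart. Gpx2 (chromosome 12, 76792335 to 76795554 in GRCm38) was at 149 and 119 CPM in the control lines versus 150.1 and 245 CPM in the knockout lines. Smad4 Knockout 1 lay just above Control 1, and Smad4 Knockout 2 at 1.83 times the control mean. The log2 fold change was 0.56 (SE 0.24), and 0.18 without Smad4 Knockout 2. Gpx1, the widely expressed cytosolic peroxidase, was at 238 and 235 CPM versus 257 and 275 CPM, with both knockouts above (0.17, SE 0.10). Gpx4, which reduces lipid peroxides and guards against ferroptosis, was at 263 and 225 CPM versus 244 and 252 CPM, with both knockouts inside the range of the controls.

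In NADPH supply all 5 genes overlapped between the groups, and their log2 fold changes ran from 0.05 to 0.10. Taldo1, transaldolase, was at 156 and 142 CPM in the control lines versus 155 and 165 CPM in the knockout lines, and Tkt, transketolase, at 667 and 586 CPM versus 638 and 703 CPM. G6pdx, which starts the pentose phosphate pathway, was at 142 and 173 CPM versus 162 and 169.6 CPM. Me1, malic enzyme, which holds the other TGACTCAGC match, was at 162 and 202 CPM versus 199 and 189 CPM. In G6pdx, Me1 and Pgd the controls lay further apart than the knockouts did, with Control 1 the lowest library.

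Among the 12 glutathione S-transferases both knockouts were above both controls in 6, and both were below in 1, Gstm5, where the shares over all genes were 18.2% and 18.6%. Gsta1 (gene ID 14857, chromosome 9, 78230669 to 78242683), an alpha-class enzyme, was at 32.8 and 40.4 CPM in the control lines versus 47.1 and 64.4 CPM in the knockout lines. Its log2 fold change was 0.61 (SE 0.19, edgeR unadjusted p = 0.0185), and 0.37 without Smad4 Knockout 2. Gsta4 (gene ID 14860, chromosome 9, 78191966 to 78209349), which conjugates lipid peroxidation products such as 4-hydroxynonenal, was at 322 and 299 CPM versus 364 and 523 CPM. Its log2 fold change was 0.51 (SE 0.18, edgeR unadjusted p = 0.0291), and 0.24 without Smad4 Knockout 2. In both genes the order of the libraries put Smad4 Knockout 2 first and Smad4 Knockout 1 next.

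Mgst1, a membrane-bound transferase with a match in its window, was at 65.1 and 73.3 CPM in the control lines versus 86.02 and 83.6 CPM in the knockout lines. The knockouts were close to each other here (log2 fold change 0.29, SE 0.11), and the value was 0.33 without Smad4 Knockout 2. Gstp2 was at 21.6 and 19.5 CPM versus 24.4 and 28.6 CPM (0.37, SE 0.14), while its close relative Gstp1 was at 137 and 121 CPM versus 127 and 139 CPM and overlapped. Mgst3 (0.30, SE 0.13, and 0.17 without Control 2) and Gstm1 (0.13, SE 0.11) were the other 2 with both knockouts above. Gstm2, Gsto1, Mgst2 and Gstt1 overlapped, with log2 fold changes from 0.07 to 0.10, and Gstm5 had -0.12 (SE 0.12). Gstt1 was the least abundant gene, at most at 5.28 CPM, and its interval from -0.61 to 0.79 was wide.

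Some transferase counts are uncertain because the genes resemble others. Of the 75-base words in the Gsta1 transcripts, 86.3% also occurred in transcripts of other GENCODE M21 genes, and the largest share, 76.2%, was with the neighbouring predicted gene Gm3776. Gm3776 was itself at 29.4 and 34.8 CPM in the control lines versus 38.1 and 53.6 CPM in the knockout lines, so counts of the 2 genes may be split between them. Gstp1 and Gstp2 shared 44.5% and 45.8% of their words, mostly with each other. Gpx4 (46.2%) and Ftl1 (78.3%) shared words with their pseudogenes Gpx4-ps2 and Ftl1-ps1, and Me1 shared 21.4%. Gsta4, Mgst1 and Nqo1 shared none, Ephx1 0.373%, and 33 of the 44 genes shared under 5%.

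Among the enzymes that act on quinones, carbonyls and epoxides, Ephx1 had the largest log2 fold change of the 44 genes. Ephx1 (gene ID 13849, chromosome 1, 180989556 to 181017569), microsomal epoxide hydrolase, was at 18.1 and 20.6 CPM in the control lines versus 25.5 and 38.1 CPM in the knockout lines. Both knockouts were above both controls, and Smad4 Knockout 2 was at 1.97 times the control mean against 1.32 times for Smad4 Knockout 1. The log2 fold change was 0.72 (SE 0.21, edgeR unadjusted p = 0.0152, edgeR adjusted p = 0.677), and 0.41 without Smad4 Knockout 2. Nqo1, the quinone reductase that is the textbook NRF2 target, was at 20.97 and 26.01 CPM versus 27.4 and 34.1 CPM. Smad4 Knockout 1 lay only just above Control 2, and the log2 fold change was 0.39 (SE 0.17), with 0.24 without Smad4 Knockout 2 and 0.24 without Control 1.

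The carbonyl reductases and Ugdh did not follow them. Cbr3 was at 38.3 and 48.3 CPM in the control lines versus 44.9 and 48.6 CPM in the knockout lines, and Cbr1 overlapped as well, at 0.06. Ugdh, which makes UDP-glucuronic acid for glucuronidation and carries 2 of the printed matches, was at 300.3 and 304 CPM versus 295 and 232 CPM. Both knockouts were below both controls, but only Smad4 Knockout 2 stood apart, and the log2 fold change of -0.20 (SE 0.14) became -0.02 without it. The exporters Abcc1 and Abcc4, which pump out glutathione conjugates and other organic anions, both had -0.01 and overlapped; Abcc4 was at 179 and 232 CPM versus 215 and 194 CPM, with its 2 controls further apart than its knockouts. Abcc1 was at 201 and 222 CPM versus 215 and 205 CPM. Both values are so near 0 that their sign turned without the filter on low counts and on TPM, though not with RLE factors.

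Heme and iron genes held the lowest log2 fold change of the list. Hmox1 (gene ID 15368, chromosome 8, 75093618 to 75100593), heme oxygenase 1, a target of both NRF2 and its competitor BACH1, was at 18.6 and 17.0 CPM in the control lines versus 13.6 and 15.1 CPM in the knockout lines. Both knockouts were below both controls, with a log2 fold change of -0.31 (SE 0.14). It kept this direction without any 1 of the libraries, from -0.38 to -0.24. Ftl1 lay between 1586 and 1677 CPM in every library, and Fth1, the heavy chain of ferritin, was at 188 and 222 CPM versus 190.4 and 240.4 CPM. Neither ferritin chain separated the groups.

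Of the enzymes that remove superoxide and hydrogen peroxide, Sod1 was lower and Sod2 and Cat were higher in both knockouts than in both controls. Sod1 (chromosome 16, 90220762 to 90226333 in GRCm38), the cytosolic copper and zinc superoxide dismutase, was at 239 and 223 CPM in the control lines versus 186 and 203 CPM in the knockout lines. Its log2 fold change was -0.25 (SE 0.10, edgeR unadjusted p = 0.0524) and stayed between -0.30 and -0.19 without any 1 library. Sod2, the mitochondrial enzyme, was at 75.2 and 68.97 CPM versus 80.3 and 78.1 CPM (0.14, SE 0.10, and 0.07 without Control 2). Cat, catalase, was at 36.6 and 34.5 CPM versus 37.9 and 40.7 CPM (0.14, SE 0.11). In Sod2 and Cat the gap between the nearest libraries of the 2 groups was smaller than the distance between the controls.

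**Figure D3:**
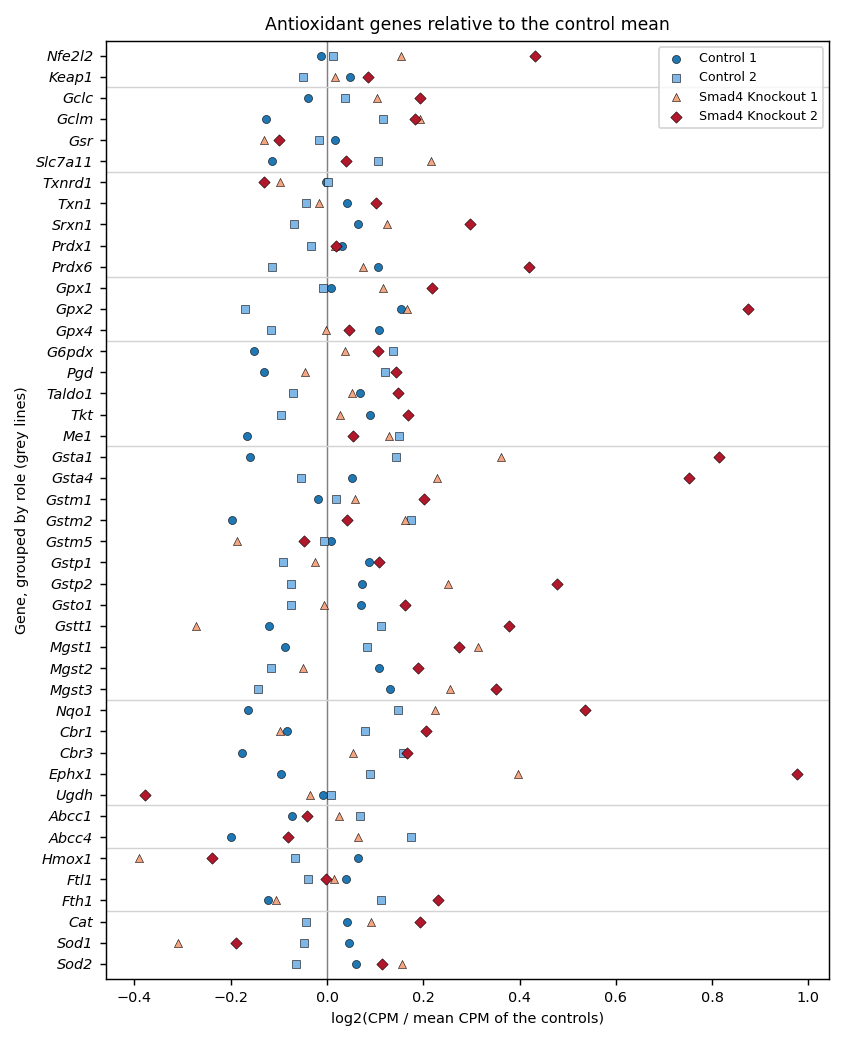
Log2 ratio of each library's CPM to the mean CPM of the controls for the 44 genes, grouped by role with grey lines between roles; circles and squares are the controls, triangles and diamonds the knockouts. Smad4 Knockout 2 (diamonds) reaches furthest right in Ephx1, Gpx2, Gsta1 and Gsta4, and both knockouts lie left of the controls in Hmox1 and Sod1.

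Across the arms, well known NRF2 targets were thus found on both sides. Of all 44 genes 16 (36.4%) had both knockouts above both controls, against 18.2% of all genes tested. Both were below in 6 (13.6%), against 18.6%. Among some targets picked by name, Nqo1, Gclc, Gclm and Srxn1 had both knockouts above both controls. Of these picked targets, Hmox1, Gsr and Txnrd1 had both below, and Slc7a11, G6pdx, Pgd, Tkt, Taldo1 and Me1 overlapped. Most of the 16 genes with both above lay outside this pick. Those were Nfe2l2, Gpx1, Gpx2, Gsta1, Gsta4, Gstm1, Gstp2, Mgst1, Mgst3, Ephx1, Cat and Sod2. Of the 6 with both below, Gstm5, Ugdh and Sod1 lay outside it. None of these directions passed the test. The 5 genes with an edgeR unadjusted p under 0.05 were Ephx1, Gsta1, Gsta4, Mgst1 and Gstp2. Their log2 fold changes were 0.72, 0.61, 0.51, 0.29 and 0.37 with all libraries. Without Smad4 Knockout 2 they were 0.41, 0.37, 0.24, 0.33 and 0.27, and without Smad4 Knockout 1 0.98, 0.81, 0.75, 0.27 and 0.48. Without Control 1 they were 0.63, 0.46, 0.57, 0.21 and 0.45. Some epithelial markers, named after their values were seen, were also highest in Smad4 Knockout 2. Tff1, a trefoil peptide of the gastric surface, was at 24.7 and 16 CPM in the control lines versus 31.6 and 61.4 CPM in the knockout lines, and Gkn1, a gastrokine, at 2.95 and 2.54 CPM versus 5.87 and 19.98 CPM. Tff2, a trefoil peptide of mucous neck cells, was highest in Smad4 Knockout 1, at 17.9 and 12.9 CPM versus 37.6 and 23.4 CPM. The 12 gastric epithelial markers together summed to 9412 and 8495 CPM in the controls and to 8926 and 9147 CPM in the knockouts, with Muc6 at 0 in both knockouts. Tff1, Gkn1 and the mitochondrial and ribosomal RNA shares given above were highest in the same library as Ephx1, Gpx2, Gsta1 and Gsta4, and their part in those values was not tested.

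A further list of 115 genes of the same pathways, taken from general knowledge of their functions, had 114 genes in the files and 110 that passed the filter. edgeR called 0 of them. At an unadjusted p under 0.05, 8 were above and 7 below, against 3.33% and 3.04% of all genes. The 7 include Gstp3, with 12 and 11 counts in the controls and 0 in both knockouts, for which no fold change is given. Both knockouts were above both controls in 29 (26.4%) and below in 17 (15.5%), against 18.2% and 18.6% of all genes, and the median log2 fold change, leaving out Gstp3, was 0.04.

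The partners and regulators of NRF2 in this list lay mostly below 0. Of 14, 12 had a log2 fold change below 0, and in 6 both knockouts were below both controls, with 0 above. In Mafg, Rbx1, Gsk3b, Pgam5 and Dpp3 it lay between -0.07 and -0.04, smaller in size than its standard error. Nfe2l2 and Keap1 are not among the 14 and were above 0, at 0.30 and 0.05. Over all genes 50.5% were below 0, 18.6% had both knockouts below and 18.2% had both above. Nfe2l3, a relative of NRF2, was at 29.3 and 27.2 CPM in the control lines versus 22.5 and 20.2 CPM in the knockout lines (log2 fold change -0.40, SE 0.13, edgeR unadjusted p = 0.021). Maff, a small MAF protein that pairs with NRF2, was at 62.3 and 60.1 CPM versus 52.5 and 46.03 CPM (-0.31, SE 0.11). Sqstm1, the autophagy receptor p62 that can sequester KEAP1, was at 313 and 298 CPM versus 265 and 236 CPM (-0.29, SE 0.11). Mafk (-0.15) and Nfe2l1 (-0.13) also had both knockouts below, whereas Bach1, the repressor that competes for the element, overlapped at 43.4 and 48.1 CPM versus 44.97 and 36.3 CPM. Cul3, the ligase scaffold, lay between 163 and 169 CPM. Maff, Sqstm1, Mafk, Nfe2l1, Bach1 and Cul3 were named after their values were seen.

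A further alpha-class transferase stood out in this list. Gsta3 was at 21.5 and 17.9 CPM in the control lines versus 31.4 and 44.1 CPM in the knockout lines, with a log2 fold change of 0.94 (SE 0.20). Its edgeR adjusted p was 0.677 and its DESeq2 adjusted p 0.00665, the 1 call that DESeq2 made in this list. It shared none of its 75-base words with other genes. Gsta2, named after its value was seen, was at 5.17 and 6.13 CPM versus 5.85 and 7.8 CPM and overlapped. Gsta1, Gsta2, Gsta3 and Gsta4 were each highest in Smad4 Knockout 2, as were 59.1% of the 44 genes and 29.1% of all genes tested. Of the 75-base words of Gsta2, 33.5% also occurred in other genes, most of them in Gm10639 (22.3%). Counts of Gsta1 and Gsta2 may therefore not be separate from those of similar genes.

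Slc40a1, the iron exporter ferroportin, was at 24.3 and 23.5 CPM in the control lines versus 33.9 and 31.8 CPM in the knockout lines (log2 fold change 0.46, SE 0.12). Each group was tight, and the edgeR unadjusted p was 0.00804. Gss, glutathione synthetase, the enzyme of the last step of glutathione synthesis, was at 44.5 and 41.2 CPM versus 53.1 and 67.1 CPM (0.49, SE 0.14). On the lower side, H6pd, which makes NADPH inside the endoplasmic reticulum, was at 55.7 and 54.2 CPM versus 44.6 and 42.6 CPM (-0.33, SE 0.10). Sesn2, a stress-induced sestrin, was at 8.8 and 9.38 CPM versus 5.83 and 6.77 CPM (-0.53, SE 0.18). The edgeR adjusted p of these 4 genes ran from 0.677 to 0.703, so none passed.

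**Figure D4:**
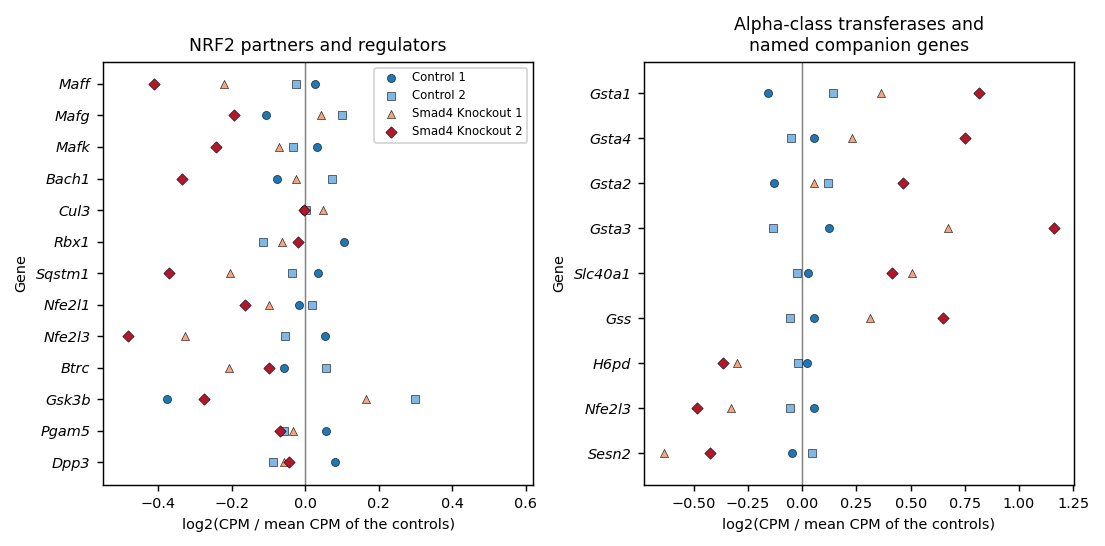
Log2 ratio of each library's CPM to the control mean for 13 NRF2 partners and regulators (left; Bach2, under 3 CPM, is left out) and for alpha-class transferases with the named companion genes (right). On the left Maff, Sqstm1 and Nfe2l3 have both knockouts below the controls, and on the right Gsta3 and Slc40a1 have both above.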

How the data were processed

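Per the labels' protocols, 4 libraries of mouse gastric organoids were each made from 0.5 ug of total RNA with an Illumina TruSeq stranded kit that removes ribosomal RNA. HISAT2 2.1.0, StringTie 2.1.3b, Trimmomatic, bcl2fastq 2.20.0 and mm10 are named in the submitters' processing notes. For the counting of reads and its strand setting, no method was given in the sources used. Each deposited file holds TPM, FPKM and read counts per gene, per the file headers. Since it is not known whether the whole-number deposited counts were counted or inferred, they were handled as estimated counts. The deposited FPKM were not used, and neither was 1 further column, an FPKM column of another sample. The column names of Control 2 add a 2 to that sample's title. Spreadsheet dates had replaced 26 symbols, which were restored by gene ID.

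Groups follow the genotype label. Replicate numbers follow sample order and pair nothing. Counts were tested with edgeR 4.0.16 in R 4.3.3 (quasi-likelihood test, TMM, filterByExpr with a minimum count of 10, genotype as the only term), with Benjamini-Hochberg adjustment over 18115 genes at 0.05. Standard errors and 95% intervals were derived from the test's F and degrees of freedom. With 2 libraries per group no exact permutation test was used. Depth ran from 85649781 to 99845702 counts, and the common dispersion of 0.0680 is a coefficient of variation of 26.1%. Alternatives were RLE factors, no filter, DESeq2 1.42.0, limma 3.58.1 with trend on log2(TPM + 1) or log2(TPM + 0.1) for genes with at least 1 TPM in at least 2 libraries, removal of histone, ribosomal protein and mitochondrial genes, and fits that each omit 1 library. The tests were also run on simulated counts, and the share of changes that they recovered is not reported here.

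The genes, lists and roles were chosen with earlier results of these data known. Named with all values were Nfe2l2, Keap1 and up to 4 genes per role with the smallest p; of the companion list, up to 3 per direction with the smallest p and at least 5 CPM in the higher group. Locations and promoter windows are RefSeq's, GRCm38.p6. Word sharing used GENCODE M21 transcripts, both strands.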

Additional observations from a re-analysis of the deposited data

How the results depend on the processing

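None of the 44 genes was called under any alternative run, in either direction. Over all genes DESeq2 called 96 higher and 31 lower where edgeR called 0 and 0, and in the companion list it called 1 higher, Gsta3, against 0. Leaving out 1 library in turn, edgeR called from 0 to 48 genes higher and from 0 to 44 lower, with the highest counts without Smad4 Knockout 1; 1 gene was higher without Control 1. In the companion list those fits called from 0 to 1 lower, the 1 being Cbs without Smad4 Knockout 1 (log2 fold change -1.30, edgeR adjusted p = 0.0499, against -0.79 with all libraries and -0.40 without Smad4 Knockout 2). The median log2 fold change of the 44 genes ran from 0.066 without Smad4 Knockout 2 to 0.16 without Smad4 Knockout 1.

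On the deposited TPM, 23 of the 44 genes had both knockouts above both controls and 4 had both below, where CPM gave 16 and 6. The same shares over all genes were not counted on TPM, so the 23 and 4 have no background to be read against. The median log2 fold change over all genes was 0.027 with limma on log2(TPM + 1), against -0.0026 with edgeR. RLE factors and DESeq2 kept the direction of all 44 genes. Abcc1 and Abcc4, at -0.0082 and -0.0067, turned above 0 without the filter (0.0028 and 0.0039), with log2(TPM + 1) (0.029 and 0.037), with log2(TPM + 0.1) (0.029 and 0.038) and without histone, ribosomal protein and mitochondrial genes (0.0026 and 0.0036); the other 42 kept their direction in these 4 fits. Leaving out libraries changed the direction of 16 genes, with log2 fold changes from -0.0035 to 0.10 for Txn1, from -0.015 to 0.053 for Prdx1, from -0.087 to 0.14 for Gpx4, from -0.063 to 0.22 for G6pdx, from -0.067 to 0.18 for Pgd, from -0.054 to 0.26 for Me1, from -0.069 to 0.30 for Gstm2, from -0.044 to 0.14 for Gstp1, from -0.26 to 0.38 for Gstt1, from -0.037 to 0.19 for Mgst2, from -0.085 to 0.21 for Cbr1, from -0.044 to 0.29 for Cbr3, from -0.075 to 0.063 for Abcc1, from -0.18 to 0.19 for Abcc4, from -0.034 to 0.049 for Ftl1, from -0.094 to 0.23 for Fth1. The other 28 kept theirs. Outside the list, Cul3 ran from -0.0043 to 0.063 and Trp53 from -0.46 to 0.054. The cause of these changes was not tested. No paired analysis was possible because the labels give the groups no shared replicate numbers. With 2 libraries a group, the fit had 2 residual degrees of freedom, and p was adjusted over 18115 genes. Both limit what can be called, beside the median standard error of 0.12. Smad4 itself, with a log2 fold change of -0.88 (SE 0.10), was not called.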

Other observations

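Genes of neighbouring pathways that the comparison above did not name gave further values, chosen after they were seen. Ptgr1, prostaglandin reductase 1, which also reduces reactive alkenals, was at 40.1 and 38.5 CPM in the control lines versus 46.6 and 66.6 CPM in the knockout lines (log2 fold change 0.53, SE 0.18). Idh1, cytosolic isocitrate dehydrogenase and a source of NADPH, was at 170.04 and 134 CPM versus 183 and 241 CPM (0.48, SE 0.18). Both were highest in Smad4 Knockout 2, and neither passed the test (edgeR adjusted p = 0.718 and 0.748). Cbs, cystathionine beta-synthase, which starts the route from homocysteine to cysteine, was at 32.8 and 36.2 CPM versus 25.95 and 14.1 CPM.

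Some enzymes that make reactive oxygen, and proteins that serve them, were also measured. Duox2, a dual oxidase, was at 65.4 and 48.6 CPM in the control lines versus 69.1 and 70.95 CPM in the knockout lines, and Noxo1, an organiser subunit of NADPH oxidase 1, at 8.31 and 4.89 CPM versus 9.94 and 10.5 CPM. In Duox2 and Noxo1 Control 2 was the lowest library and both knockouts were above both controls. Duoxa2 and Nox1 of the same list overlapped between the groups. Duoxa2 was at 35.5 and 17.5 CPM in the control lines versus 29.6 and 33.7 CPM in the knockout lines. Nox1 was near 0, at 0.316 and 0.054 CPM versus 0.347 and 0.124 CPM. Without Control 2 the log2 fold change of Duox2 was 0.10, against 0.30 with all libraries.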
